A study of Bos taurus with 42 samples.

Results

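Gene expression in the liver was compared between bovine fetuses of nutrient restricted dams (RES) and of control dams (CON). All libraries that the labels give as liver were used, 14 of the 42 RNA-Seq libraries of the study, with the cerebrum and the hind limb muscle of the same 14 fetuses providing the other libraries. The dams were Angus-cross heifers bred to 1 common sire and assigned to a diet at breeding. CON dams (*n* = 7) received 100% of the energy requirement for a set weight gain, and RES dams (*n* = 7) received 60% of the CON delivery until tissue collection on day 50 of gestation. Each library came from the liver of 1 fetus, and no agent or allele other than the diet separated the groups. The CON group held fetuses 2, 23, 46, 54, 68, 69 and 73, with 6 males and 1 female (68). The RES group held fetuses 1, 6, 25, 33, 52, 55 and 70, with 5 males and 2 females (55 and 70). The labels give no batch, and RNA quality is given only as a range over the whole study, from 5.7 to 9.5.

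The fetal liver combines metabolic and blood-forming tissue. Its hepatocytes, which arise from the gut endoderm, secrete plasma proteins, lipoproteins and clotting factors, while blood-forming cells that settle between them produce the red cells of the fetus. Nuclear receptors and other liver-enriched transcription factors set the hepatocyte program, and the liver is also the main source of insulin-like growth factors for fetal growth. A shortage of maternal nutrients reaches the fetus through the placenta, so genes of nutrient sensing, mitochondrial energy supply and lipid handling are those usually examined in this organ.

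The markers of both cell populations were present in every library. *APOB*, the core protein of secreted lipoproteins, ranged from 10.04 to 10.62 log2 CPM in CON (median 10.29) and from 9.98 to 10.67 in RES (median 10.31). For *FGA*, a fibrinogen chain, the range was 10.35 to 10.86 in CON (median 10.60) and 10.12 to 11.43 in RES (median 10.59). The thyroid hormone and retinol carrier *TTR* ranged from 9.67 to 10.46 in CON (median 10.19) and from 9.54 to 11.27 in RES (median 10.59). These 3 hepatocyte genes overlapped widely between the diets, with log2 fold changes (RES minus CON, here and below) of 0.05 ± 0.16 (SE) for *APOB*, 0.13 ± 0.19 for *FGA* and 0.42 ± 0.21 for *TTR*. *GATA1*, the transcription factor that drives red cell and platelet formation, ranged from 7.51 to 8.32 in CON (median 7.77) and from 7.66 to 9.24 in RES (median 8.42). Its level lay above the CON median in 6 of 7 RES libraries and above the highest CON library in 5 of them, and its log2 fold change was 0.67 ± 0.20 (unadjusted *p* = 0.0044, edgeR's adjusted *p* = 0.184).

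Summed over the 7 hepatocyte markers with a symbol, the libraries held 156971 ± 57239 CPM (SD, *n* = 7) in CON and 116724 ± 42839 in RES. Here CPM is the count scaled to a fixed library size. The log2 CPM values of single genes are also scaled by a normalization factor per library (TMM). The alpha-1 antitrypsin gene *SERPINA1* had the most counts among them. The 12 erythroid markers summed to 10068 ± 1784 CPM in CON and 9372 ± 3761 in RES, with the alpha globin *HBA* the most abundant, whose near-identical copies may share reads. Since mitochondrial counts are part of the library size, both sums were also computed on counts outside the mitochondrial genes. The hepatocyte sum then ranged from 84122 (fetus 2) to 226683 CPM in CON (median 185472) and from 113801 (fetus 52) to 214603 in RES (median 161521), with 200863 in RES fetus 1. The erythroid sum ranged from 9791 to 13061 CPM in CON (median 12266) and from 10054 to 15032 in RES (median 10951). The groups overlapped in both sums. Markers of neighbouring organs with a symbol had low sums beside the hepatocyte and erythroid ones. The 12 skeletal muscle markers summed to 18.4 ± 3.28 CPM in CON and 27.4 ± 15.5 in RES, with *TNNT3* the most abundant and *MYOD1*, the defining muscle factor, at 0 in all 14 libraries. Of the 9 kidney markers 4 had a symbol, and they summed to 1.51 ± 0.698 CPM in CON and 0.942 ± 0.642 in RES. Among them *PAX2* was also at 0 throughout, while *PAX8* was the most abundant at a mean of 1.2 CPM. The 3 of 9 genes of the adrenal cortex list with a symbol summed to 63.2 ± 21.7 CPM in CON and 54.3 ± 22.1 in RES. The 2 of 13 genes of the gut and pancreas list with a symbol gave 21.3 ± 8.15 CPM in CON and 28.1 ± 18.6 in RES. Their maximum was 62.0 in RES fetus 55, whose 5 neural markers at 27.3 CPM were also above those of every other library. In bulk tissue, fewer cells of a type and less RNA per cell cannot be told apart.

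The libraries held 6658218 to 12741299 counts, and a gene with 3 counts stood at 0.235 to 0.451 CPM, so weakly expressed genes were the least precise. The mitochondrial genome contributed very unequally to these totals. Its 12 protein-coding genes with a symbol, which encode subunits of the respiratory chain and of ATP synthase, took 44.9% of the counts in CON fetus 2 and 16.4% in CON fetus 23. For the remaining 5 CON livers the share ran from 4.04% to 8.56%. In RES they took 67.7% in fetus 1, 35.6% in fetus 6, 30.5% in fetus 33, 12.6% in fetus 55, 12.5% in fetus 25, 9.61% in fetus 52 and 4.34% in fetus 70. The mean share was 24.7% ± 22.1 (SD, *n* = 7) in RES and 12.6% ± 14.9 in CON, and the difference of 12.1 percentage points did not exceed the spread between fetuses (two-sided exact permutation test, *p* = 0.28, adjusted *p* = 0.538 over 6 library measures). Without RES fetus 1 the difference was 4.94 percentage points. The groups overlapped widely, with 3 RES libraries and 1 CON library above 30%. The Wilson 95% binomial interval of RES fetus 1 was 67.71% to 67.76%, and such intervals cover counting error only.

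Counts outside the mitochondrial genes hardly differed, with a median of 6843800 in CON and 6845369 in RES. The lowest value, 4110670, was that of RES fetus 1, where 14942 genes had a count, against 15796 to 17285 in the other RES libraries and 16020 to 16762 in CON. In the other tissues of the same fetuses the shares covered a narrower range. The cerebrum libraries of the same fetuses had shares of 2.73% to 14.7% and the muscle libraries 2.35% to 4.03%. RES fetus 1 had the highest share in all 3 tissues, while CON fetus 2 had 6.89% in the cerebrum and 2.88% in muscle.

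The mitochondrial share also went with the main axis of variation among the libraries. In a principal component analysis of log2 CPM over the 13527 genes tested, 58.3% of the variance lay on the first component and 9.82% on the second. Its correlation with the mitochondrial share over the 14 livers was *r* = -0.88 (permutation *p* = 1e-05, the smallest that these permutations can give, adjusted *p* = 2.5e-05 over 5 library measures), with Spearman's rho = -0.94 (permutation *p* = 1e-05). Without the libraries farthest from the median share, CON 2 and RES 1, *r* was -0.95, and within the diets it was -0.90 in CON and -0.86 in RES. The component also followed the library total (*r* = -0.88), which includes the mitochondrial counts, and the number of genes detected (*r* = 0.76). Its correlation was *r* = 0.85 with the summed hepatocyte CPM (permutation *p* = 0.0002, rho = 0.85) and *r* = 0.67 with the summed erythroid CPM (permutation *p* = 0.00832, rho = 0.44), and mitochondrial counts are part of the library size of both. Both sums were also taken on counts outside the mitochondrial genes, a measure added after seeing the data. There *r* was 0.41 for the hepatocyte sum (permutation *p* = 0.141, rho = 0.50, *r* = 0.93 within CON and -0.07 within RES). For the erythroid sum *r* was 0.06 (permutation *p* = 0.823, rho = -0.01, *r* = -0.55 within CON and 0.46 within RES). Values of the first component were lowest in RES 1 (-100), RES 6 (-82.8), RES 33 (-72.7) and CON 2 (-53.4), and highest in RES 70 (78.3), CON 46 (68.3) and CON 69 (65.3). Between the diets it differed by -49.2, within the spread of the fetuses (two-sided exact permutation test, *p* = 0.126).

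**Figure D1:**
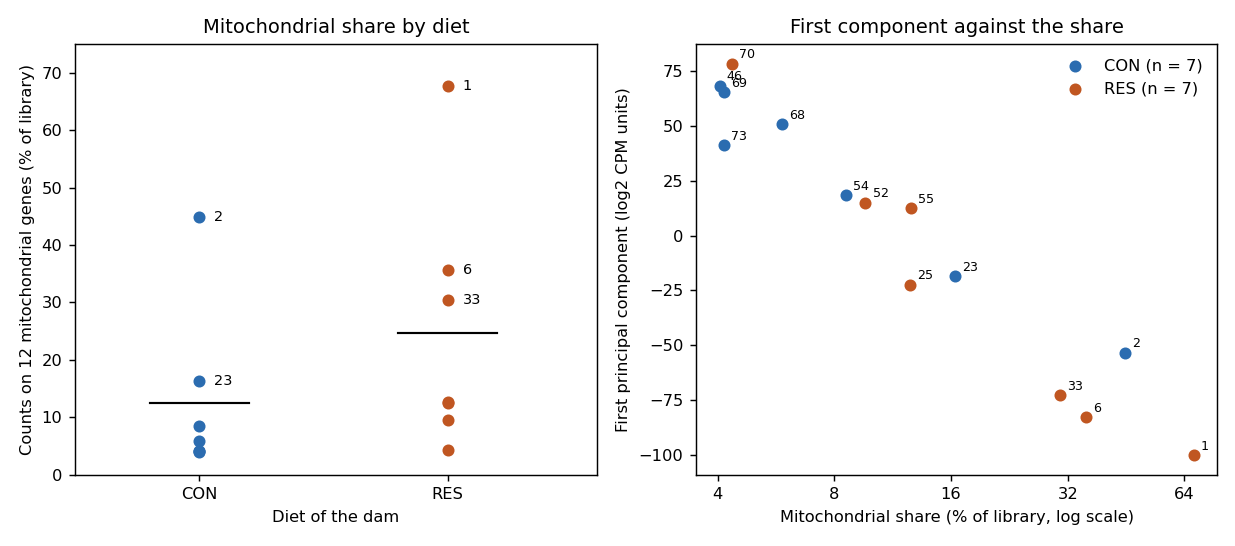
Left, percentage of each liver library's counts on 12 mitochondrial genes, 1 point per fetus with its number where the share is over 14%, and the group mean as a line (24.7% in RES, 12.6% in CON). Right, the first principal component of log2 CPM against the share on a log axis, with fetus numbers: both diets lie on the same descending line, from RES 70 and CON 46 at the top to RES 1 at the bottom.

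Differential expression between the diets was tested for 13527 genes with edgeR's quasi-likelihood test and fetal sex in the model. No gene passed an adjusted *p* of 0.05 (0% of the genes tested, lowest adjusted *p* = 0.184). At an unadjusted *p* under 0.05, 1828 genes were higher in RES (13.5%) and 1432 lower (10.6%), 24.1% in all, and these are called nominally higher and nominally lower below. All of them had an adjusted *p* of at least 0.184, so none is a call at the adjusted threshold. DESeq2's Wald test placed 78 genes (0.577% of the genes tested) under an adjusted *p* of 0.05, 43 higher and 35 lower. It gave no adjusted *p* for 3154 genes. With limma's voom and sample quality weights, 4092 genes had an adjusted *p* under 0.05. The median size of a log2 fold change was 0.35. Expression varied more among RES than among CON livers, with a median SD of 0.56 against 0.39 log2 units and a larger SD in RES for 10606 genes.

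Adding the mitochondrial share of each library (as its logit) to the model left 826 nominal genes (6.11%), of which 522 were higher (3.86%) and 304 lower (2.25%), and 687 of them were among the 3260 of the model without it. Leaving out RES fetus 1 left 1909 (14.1%), 954 higher (7.05%) and 955 lower (7.06%). Without the 4 libraries over 30% (RES 1, 6 and 33 and CON 2), a setting chosen after seeing the data, 924 genes (6.83%) had an unadjusted *p* under 0.05, with 477 higher (3.53%) and 447 lower (3.3%). Without the sex term the number was 1347. The share was 12.6% and 4.34% in the RES females (55 and 70) and 5.84% in the CON female (68). Whether this bears on the number was not tested.

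*ENTPD8* (ENSBTAG00000030246), an ectonucleotidase that hydrolyses extracellular ATP and is typical of the bile canaliculus, had the lowest *p* of all genes. Its level was 6.73 to 8.08 log2 CPM in CON (median 7.39) and 7.33 to 9.53 in RES (median 8.31). Of the 7 RES libraries, 5 lay above every CON library and RES fetuses 55 and 70 lay within the CON range. The log2 fold change was 1.2 ± 0.22 (unadjusted *p* = 6.21e-05, adjusted *p* = 0.184), and DESeq2 gave an adjusted *p* of 0.002. With the mitochondrial share in the model the estimate was 1.01 (unadjusted *p* = 0.000618), and without the 4 libraries of highest share it was 0.67 (unadjusted *p* = 0.00604). The change of *ENTPD8* with the share itself was 0.11 ± 0.07 per doubling of the share's odds and did not pass (adjusted *p* = 0.187).

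*TMEM86B* (ENSBTAG00000051212), which encodes the enzyme that cleaves lysoplasmalogen lipids, ranged from 6.08 to 7.56 in CON (median 7.20) and from 6.70 to 9.19 in RES (median 7.89), with a log2 fold change of 1.29 ± 0.27 (unadjusted *p* = 0.000237). Here the 3 highest libraries were RES 1, 6 and 33, those of high share, and the estimate was 0.79 with the share in the model (unadjusted *p* = 0.000901). *RRP1B*, a nucleolar protein of ribosome assembly, ranged from 4.77 to 5.78 in CON (median 4.93) and from 5.04 to 6.39 in RES (median 5.95). All 7 RES libraries were above the CON median, 4 were above every CON library, and its log2 fold change of 0.82 ± 0.18 (unadjusted *p* = 0.000437) was 0.53 with the share (unadjusted *p* = 0.000254) and 0.66 without the 4 libraries (unadjusted *p* = 0.00306).

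*TBC1D1*, a Rab GTPase-activating protein that links insulin and energy signals to glucose transport, had a narrow range in CON (4.03 to 4.54, median 4.13), and 6 RES libraries lay above it (4.07 to 5.31 in RES, median 4.85). Its log2 fold change was 0.68 ± 0.16 (unadjusted *p* = 0.00076), and only RES fetus 70 lay among the CON livers. The membrane protein gene *SUSD2* had the smallest estimated change with the share of these genes. It ranged from 2.35 to 3.33 in CON (median 2.82) and from 2.65 to 4.27 in RES (median 3.58), with 6 RES libraries above every CON library and RES fetus 70 again low. Its log2 fold change was 0.92 ± 0.23 (unadjusted *p* = 0.00104), 0.94 with the share and 0.79 without the 4 libraries, and its change per doubling of the share's odds was 0.00 ± 0.08.

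Another 5 genes complete the 10 with a symbol, at least 10 CPM and the lowest *p* among those higher in RES. They are *TBC1D10C* (0.84 ± 0.20), a Ras and calcineurin inhibitor of lymphoid cells, *IGSF8* (0.97 ± 0.24), a tetraspanin partner, *SLC16A11* (1.07 ± 0.26), a liver monocarboxylate transporter, *SLC25A23* (0.77 ± 0.20), a mitochondrial ATP-magnesium carrier, and *PCIF1* (0.70 ± 0.18), the methyltransferase of the mRNA cap-adjacent adenosine. Their unadjusted *p* ranged from 0.000702 to 0.00151, and all 5 remained under 0.05 with the share in the model. Their estimates were smaller there, at 0.54, 0.60, 0.55, 0.44 and 0.40 in the same order. Without the 4 libraries, *IGSF8* (unadjusted *p* = 0.0535) and *SLC16A11* (unadjusted *p* = 0.0781) did not.

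Among genes lower in RES, *DNAJA1* (ENSBTAG00000016265), an HSP40 co-chaperone of HSP70, had the lowest *p* of those with a symbol and at least 10 CPM. It ranged from 3.81 to 5.14 in CON (median 4.96) and from 2.19 to 4.97 in RES (median 3.72). The 4 lowest RES values lay below every CON library, while RES fetuses 52, 55 and 70 lay within the CON range. The log2 fold change was -1.32 ± 0.34 (unadjusted *p* = 0.00135, adjusted *p* = 0.184), -0.79 with the share (unadjusted *p* = 0.00191) and -0.77 without the 4 libraries (unadjusted *p* = 0.00966). DESeq2 gave *DNAJA1* an adjusted *p* of 0.0266.

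*HSD17B11*, a lipid-droplet steroid dehydrogenase, ranged from 4.91 to 5.70 in CON (median 5.21) and from 3.80 to 5.14 in RES (median 4.45), so that 5 RES libraries were below every CON library (log2 fold change -0.77 ± 0.21, unadjusted *p* = 0.00198). *NDUFV3*, an accessory subunit of respiratory complex I, ranged from 4.42 to 5.39 in CON (median 4.97) and from 3.36 to 5.05 in RES (median 4.36). Its log2 fold change was -0.86 ± 0.23 (unadjusted *p* = 0.00184), -0.52 with the share and -0.53 without the 4 libraries. In *LYVE1*, the hyaluronan receptor of sinusoidal and lymphatic endothelium, all 7 RES libraries (3.91 to 5.12, median 4.50) were below the CON median of 5.25, with a log2 fold change of -0.73 ± 0.20 (unadjusted *p* = 0.00245). For *LYVE1* the share term did not pass (adjusted *p* = 0.115), and its estimate without the 4 libraries was -0.81 (unadjusted *p* = 0.00254).

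In the surface proteoglycan gene *SDC2*, 1 RES fetus stood apart. Of the RES libraries, 6 held 3.26 to 3.70 log2 CPM and RES fetus 70 held 5.04, above every CON library (3.67 to 4.94). The log2 fold change of *SDC2* was -0.90 ± 0.26, -0.54 with the share and -0.85 without the 4 libraries. The remaining genes of this set were *NGRN* (-0.76 ± 0.22), a mitochondrial ribosome assembly factor, *CBR4* (-0.77 ± 0.22), a reductase of mitochondrial fatty acid synthesis, the sialomucin *CD164* (-1.07 ± 0.31), the vesicle coat subunit *SEC24D* (-1.07 ± 0.31) and the chromatin remodeller *SMARCA1* (-1.03 ± 0.31). Each of these 5 fell with the mitochondrial share (adjusted *p* from 9.28e-05 to 0.00344), and with the share in the model their diet estimates lay between -0.54 and -0.41. The unadjusted *p* was then 0.0516 for *CD164*, and without the 4 libraries it was 0.0548 for *NGRN* and 0.0523 for *SMARCA1*.

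**Figure D2:**
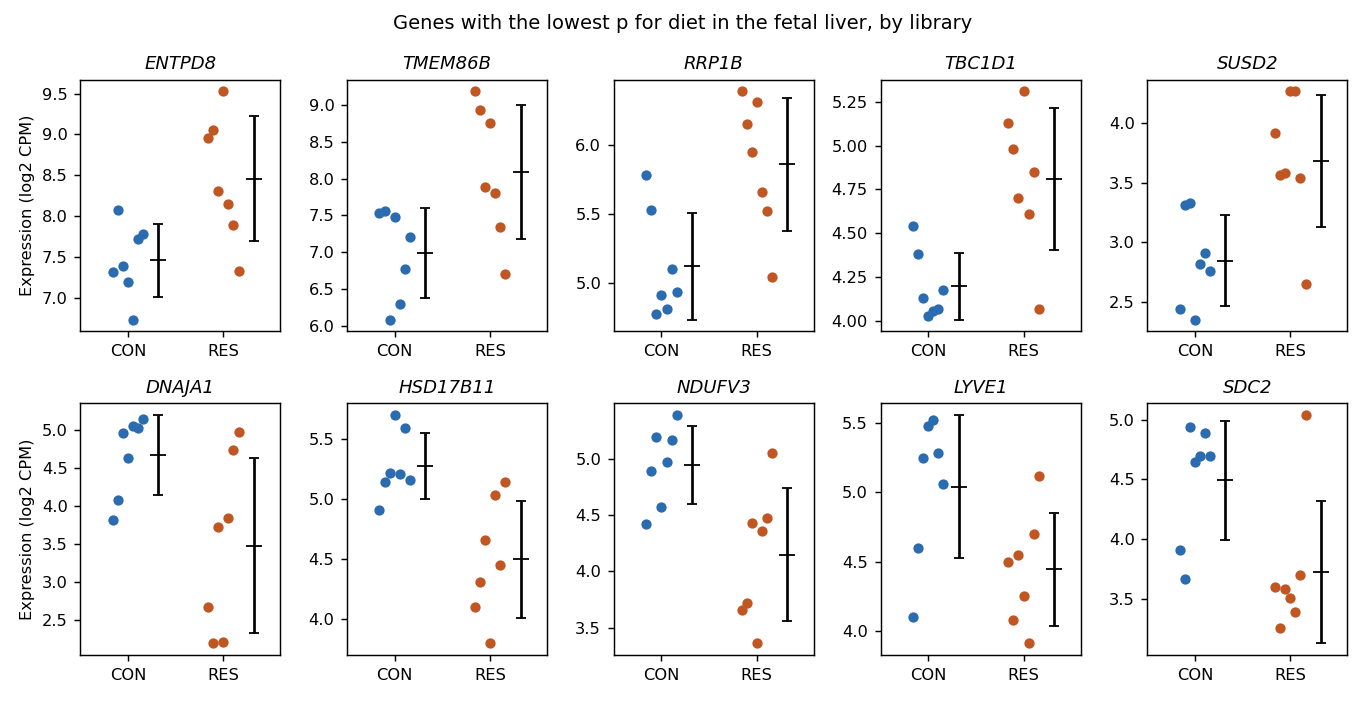
Expression in log2 CPM of 5 genes higher and 5 genes lower in RES, 1 point per liver library, with the mean and SD of each group (n = 7) at its right. The groups overlap in every panel, in several through RES fetus 70, and the 3 highest RES points of *TMEM86B* and the 3 lowest of *DNAJA1* are fetuses 1, 6 and 33.

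Complete separation of the groups was rare. In 2 genes all RES libraries lay above all CON libraries (0.0148% of the genes) and in 2 they lay below (0.0148%). Those above were ENSBTAG00000005058 (log2 fold change 0.56) and ENSBTAG00000019947 (0.84), and those below were *C1H3orf33* (-0.90) and ENSBTAG00000010083 (-0.20), of which only *C1H3orf33* has a symbol among the sources used. They were named after their values were seen.

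Symbols came only from the tables of the study, which hold mostly genes it selected, so each list covers the members with a symbol there. Gene lists are described by the number of their measured members with an unadjusted *p* under 0.05 and by their median log2 fold change. The number is to be read against 13.5% higher and 10.6% lower over all genes, and the median against -0.03. For the other settings the percentages over all genes were 7.05 higher and 7.06 lower without RES fetus 1. They were 3.86 and 2.25 with the share, and 3.53 and 3.3 without the 4 libraries. Liver transcription factors had 8 of 19 members nominally higher (42.1%) and none lower, with a median of 0.20. The highest estimate was that of *MLXIPL*, the carbohydrate-responsive regulator of glycolytic and lipogenic genes, with 5.23 to 6.42 log2 CPM in CON (median 5.60) and 4.88 to 7.67 in RES (median 6.89). Its log2 fold change was 1.07 ± 0.29 (unadjusted *p* = 0.00185), 0.60 with the share and 0.69 without the 4 libraries. The xenobiotic receptor *NR1I2* (0.79 ± 0.23, 6 RES libraries above every CON library) and the oxysterol receptor *NR1H2* (0.78 ± 0.24) were also nominally higher. *FOXA3*, a factor of hepatocyte glucose genes (-0.20 ± 0.15), and the bile acid receptor *NR1H4* (-0.30 ± 0.18) were among those with estimates below 0. Without RES fetus 1 the number of nominally higher factors was 5, against 7.05% of all genes. With the share in the model 3 of the 19 factors were nominally higher, against 3.86% of all genes.

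Proteins that the hepatocyte exports had estimates in both directions. Of 19 secreted plasma proteins, 3 were nominally higher and none lower (median 0.13), 1 was higher without RES fetus 1, and without the 4 libraries the median was -0.27. *APOA2*, a protein of high-density lipoprotein, went from 11.97 to 12.84 log2 CPM in CON (median 12.29) and from 12.03 to 14.70 in RES (median 12.81), with the 3 highest values in RES 1, 6 and 33, and its log2 fold change of 1.10 ± 0.34 became 0.14 without the 4 libraries. *VTN* (vitronectin, 0.80 ± 0.32) was nominally higher, whereas fetuin A (*AHSG*, -0.77 ± 0.38, unadjusted *p* = 0.062) and transferrin (*TF*, -0.63 ± 0.33, unadjusted *p* = 0.0783) had estimates below 0. *AHSG* was lowest in CON 2 (13.54), RES 6 (13.72) and RES 33 (14.13), all of high share, and highest in RES 70 (15.91) and CON 46 (15.89), with RES 1 between them (14.76). *AFP*, the albumin-like protein typical of fetal liver, did not differ beyond its spread (-0.17 ± 0.29).

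In the clotting list, 5 of 20 members were nominally higher and 2 lower (median 0.15), with *HRG* (histidine-rich glycoprotein, 0.56 ± 0.18) and the initiating protease *F7* (0.82 ± 0.26) higher and *F9* (-1.39 ± 0.65) and *SERPINA10* (-0.70 ± 0.32) lower. Complement had 4 of 15 higher and none lower (median 0.26), among them *CFD* (1.02 ± 0.32), *C5* (0.94 ± 0.34) and *C3* (0.69 ± 0.29), the component on which all complement routes converge. Lipoprotein and lipid transport had 6 of 14 higher (42.9%) and 1 lower (median 0.30), with *LCAT*, the cholesterol-esterifying enzyme of plasma (0.84 ± 0.30), and *APOC3* (0.70 ± 0.32) higher and the triglyceride regulator *APOA5* (-1.08 ± 0.38) lower. Without RES fetus 1, 2 of 15 complement genes and 2 of 14 lipoprotein genes were nominally higher, against 7.05% of all genes. In the clotting, complement and lipoprotein lists the median was below 0 without the 4 libraries (-0.23, -0.11 and -0.14), and *C3*, *APOC3* and *VTN* then had estimates of -0.05, -0.17 and -0.22. Only *HRG* and *CFD* of the named clotting, complement and lipoprotein genes were past 0.05 with the share. Estimates of 0.38 for *C3*, 0.44 for *APOC3* and 0.48 for *VTN*, none past 0.05, and of 0.52 for *F7* were found without RES fetus 1.

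Carbohydrate genes also differed in direction. Of 6 genes of gluconeogenesis and glycogen, *G6PC3* (0.87 ± 0.28) and the glucose-6-phosphate transporter *SLC37A4* (0.66 ± 0.24) were nominally higher, and *SLC2A2*, the hepatocyte glucose transporter GLUT2 (-1.47 ± 0.53), was lower. *SLC2A2* stood at 0.76 to 1.93 log2 CPM in 6 RES libraries and at 3.98 in RES fetus 70. In glycolysis, *PFKFB1*, the liver enzyme that sets fructose-2,6-bisphosphate (0.77 ± 0.34), was higher and *PGK1* (-0.70 ± 0.24) lower among 7 genes (median 0.23). Of these 5 genes only *PGK1* had an unadjusted *p* under 0.05 with the share in the model or without the 4 libraries. *PFKFB1* gave 0.56 without RES fetus 1 (unadjusted *p* = 0.109), and *SLC2A2* gave -0.45 with the share (unadjusted *p* = 0.208).

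Among 10 genes of fatty acid oxidation, *PLIN5* (1.39 ± 0.41), a lipid-droplet protein of oxidative cells, and *ACADVL* (0.46 ± 0.20) were nominally higher, and *CPT2* (-0.46 ± 0.16) and *ACADM* (-0.93 ± 0.39) lower, with a median of -0.11. Of 5 genes of fatty acid and triglyceride synthesis, *AGPAT2* (0.55 ± 0.17, all 7 RES libraries above the CON median) was higher, while *ACLY* (-0.41 ± 0.17) and *ELOVL6* (-0.66 ± 0.25) were lower. Cholesterol synthesis had 3 of 8 members lower (37.5%, against 10.6% of all genes) and none higher, with the sterol dehydrogenase *NSDHL* (-0.30 ± 0.13) among them. Without RES fetus 1, 1 of the 8 was nominally lower. The median of this list was -0.17 in all libraries, -0.07 with the share and -0.18 without the 4 libraries. Of the named lipid genes only *CPT2* was past 0.05 with the share, and *AGPAT2*, *ELOVL6* and *NSDHL* were without the 4 libraries. The estimate of *AGPAT2* was 0.34 without RES fetus 1 (unadjusted *p* = 0.0087).

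In bile acid synthesis and transport 3 of 8 genes were nominally higher and 1 lower. *CYP8B1*, the sterol 12-alpha-hydroxylase that directs synthesis toward cholic acid, ranged from 1.92 to 3.25 log2 CPM in CON (median 2.60) and from 2.26 to 5.65 in RES (median 3.34), with a log2 fold change of 1.47 ± 0.39 (unadjusted *p* = 0.00168). Its 3 highest values were again those of RES 1, 6 and 33, and it rose with the share (0.45 ± 0.07 per doubling, adjusted *p* = 0.000123). The exporter subunit *SLC51B* (0.87 ± 0.27) was nominally higher as well, and the ring-reducing enzyme *AKR1D1* (-1.14 ± 0.39) lower. The urea cycle and amino acid breakdown list had 1 of 17 members lower, *KMO* (-1.08 ± 0.39), and none higher. Of 7 genes of drug and steroid metabolism, *GSTA1* (0.56 ± 0.21) and *CYP4A11* (0.59 ± 0.24) were higher and *ALDH1A1* (-0.82 ± 0.29) lower. Of the bile acid, amino acid and drug genes named, only *CYP8B1* was past 0.05 with the share (0.61, unadjusted *p* = 0.0322), and none was without the 4 libraries.

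Growth factor genes included *IGF2* and *GHR*. *IGF2*, the main fetal growth factor of the liver, ranged from 11.54 to 12.79 log2 CPM in CON (median 11.79) and from 11.55 to 13.43 in RES (median 12.31), a log2 fold change of 0.56 ± 0.28 (unadjusted *p* = 0.0595) that was 0.08 with the share in the model. *GHR*, the growth hormone receptor, ranged from 0.98 to 3.14 in CON (median 2.69) and from 0.16 to 3.45 in RES (median 1.60), with 6 of 7 RES libraries below the CON median and RES fetus 70 the highest library of all. The log2 fold change of *GHR* was -1.15 ± 0.38 (unadjusted *p* = 0.00826), -0.44 with the share (unadjusted *p* = 0.0448) and -0.79 without the 4 libraries (unadjusted *p* = 0.0453). Both genes followed the share, *IGF2* upward and *GHR* downward. The carrier subunit *IGFALS* (0.65 ± 0.31) was nominally higher, but its estimate was 0.18 with the share (unadjusted *p* = 0.557) and -0.12 without the 4 libraries. The whole list of 10 had 1 higher and 1 lower member (median 0.10). Without the 4 libraries none was higher and 3 were lower (median -0.19), against 3.3% lower over all genes.

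In mTOR and PI3K-Akt signalling, 1 of 12 genes was nominally higher, the mTOR complex 2 subunit *PRR5* (0.96 ± 0.31), and 2 were lower, *FOXO3* (-1.19 ± 0.49) and *PIK3CB* (-0.88 ± 0.39). The amino acid sensor component *RRAGB* did not differ beyond its spread (0.18 ± 0.20). Of 11 genes of the amino acid and unfolded protein responses, *NUPR1*, a stress-induced nuclear protein (1.43 ± 0.45), and *ATF5* (0.82 ± 0.32) were higher and *PDIA4* (-0.54 ± 0.24) and *PSPH* (-0.37 ± 0.17) lower, while the central activator *ATF4* gave 0.52 ± 0.27 (unadjusted *p* = 0.0772). Without RES fetus 1, *ATF5* gave 0.49 (unadjusted *p* = 0.0918) and neither *PIK3CB* nor *PSPH* was past 0.05. With the share, *PRR5* and *PSPH* were the only named genes of these lists past 0.05. Without the 4 libraries the stress list had none higher and 4 of 11 lower, against 3.53% higher and 3.3% lower over all genes.

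The heat shock list had 3 of 9 members nominally lower (33.3%) and 1 higher, with a median of -0.33 that was -0.35 with the share in the model and -0.19 without the 4 libraries. *DNAJA1* was joined by the cytosolic chaperone *HSP90AA1*, at 8.69 to 10.01 log2 CPM in CON (median 9.77) and 7.76 to 9.90 in RES (median 8.84). The log2 fold change of *HSP90AA1* was -0.86 ± 0.29 (unadjusted *p* = 0.00945). It was -0.39 with the share (unadjusted *p* = 0.0279) and -0.46 without the 4 libraries (unadjusted *p* = 0.0773). Heat shock factors drive genes of this kind, and of these *HSF4* (0.78 ± 0.32) was nominally higher and *HSF1* (0.39 ± 0.20) and *HSF2* (-0.15 ± 0.19) were not past 0.05. *HSPA1A*, the inducible HSP70, varied most within RES (SD 1.49) and gave -0.54 ± 0.52. Immediate early genes had 2 of 7 lower, *KLF4* (-1.08 ± 0.41) and *FOSL2* (-1.08 ± 0.41), both near 1 CPM. *HIF1A* (-0.95 ± 0.33), the oxygen-regulated transcription factor, was the 1 lower gene of 4 in the hypoxia list. With the share in the model *HIF1A* gave -0.36 (unadjusted *p* = 0.0601) and *HSF4* 0.37 (unadjusted *p* = 0.102). Neither was past 0.05 without the 4 libraries (unadjusted *p* = 0.0814 and 0.0748).

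Mitochondrially encoded genes had the largest median of any list, 1.75, with 5 of 12 nominally higher and every estimate between 1.61 and 2.01. *ND2*, a core subunit of complex I, ranged from 9.16 to 13.28 log2 CPM in CON (median 10.17) and from 9.66 to 15.74 in RES (median 11.35), and *COX1*, the catalytic subunit of cytochrome oxidase, from 13.76 to 18.44 in CON (median 14.37) and from 14.13 to 19.99 in RES (median 15.81). These log2 values include the TMM factor, which was 0.314 in RES fetus 1, where *COX1* stood at 326229 CPM without it. The spread within a diet was of similar size to the estimates, with an SD of 1.49 in CON and 2.06 in RES for *ND2*. The median was 0.68 without RES fetus 1 and 0.52 without the 4 libraries, with no member past 0.05 in either. Nuclear genes of the respiratory chain had 1 of 20 nominally higher (*NDUFS8*, 0.83 ± 0.29) and 3 lower, among them the succinate dehydrogenase subunit *SDHA* (-0.57 ± 0.21) and the ATP synthase subunit *ATP5F1B* (-0.61 ± 0.23). Of 8 genes of mitochondrial gene expression, 3 were higher, *MRPL40* (0.94 ± 0.31), *SUPV3L1* (0.66 ± 0.20) and *TFB1M* (0.50 ± 0.16), the last a methyltransferase of mitochondrial ribosomal RNA, and 2 were lower, *TSFM* (-0.62 ± 0.28) and *NRF1* (-0.60 ± 0.27). *MRPL40*, *SUPV3L1* and *TFB1M* were the only named nuclear genes of these lists past 0.05 with the share, and none was without the 4 libraries.

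Cytoplasmic ribosomal proteins had estimates above 0 for 23 of 24 members (median 0.28), against 6475 of all 13527 genes. Only 2 were nominally higher (8.33% against 13.5% of all genes), *RPS9* (0.62 ± 0.29) among them. With the share in the model the median was 0.01. Splicing regulators had 6 of 14 nominally higher and none lower (median 0.49), led by *SNRNP70*, a U1 snRNP protein (1.03 ± 0.38), but 1 of 14 was higher without RES fetus 1 (median 0.19) and none of the 14 was past 0.05 with the share. No ribosomal protein was past 0.05 without RES fetus 1. Among 4 histone and histone supply genes, *H4* had the largest estimate, 2.02 ± 0.49 (unadjusted *p* = 0.000769), with -0.09 to 3.07 log2 CPM in CON (median 1.12), 1.48 to 4.77 in RES (median 3.50) and 6 RES libraries above every CON library. *H2B* gave 1.71 ± 0.50. Both are members of multigene families whose copies can share reads, so their counts are uncertain. The estimate of *H4* was 1.49 with the share (unadjusted *p* = 0.00113) and 1.91 without the 4 libraries.

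Cell cycle genes had 3 of 13 nominally higher and none lower, with the helicase subunits *MCM2* (0.27 ± 0.12) and *MCM3* (0.56 ± 0.17) and the S-phase activator *E2F1* (0.36 ± 0.15). *MCM2* varied little, from 7.94 to 8.19 log2 CPM in CON (median 8.10) and 8.09 to 8.59 in RES (median 8.32), and 5 RES libraries were above every CON library. Its estimate was 0.27 with the share as well (unadjusted *p* = 0.0241). In ubiquitin-mediated proteolysis, 3 of 10 were higher, including the ligase adaptor *FBXW5* (0.98 ± 0.28) and the scaffold *CUL1* (0.49 ± 0.20), and the proteasome subunit *PSMA1* (-0.85 ± 0.34) was lower, with 1 higher and none lower without RES fetus 1. *SLC22A18* (0.93 ± 0.28) was the nominally higher gene of 6 imprinted genes. In DNA methylation and one-carbon metabolism, 1 of 9 genes was nominally lower and none higher. Of 8 fibrosis-related genes, *HDAC8* (0.40 ± 0.17) was higher and *SMAD4*, the shared mediator of TGF-beta signals (-0.76 ± 0.29), lower, while *TGFB1* itself gave 0.27 ± 0.18. *CUL1* gave 0.30 and *HDAC8* 0.25 without RES fetus 1, neither past 0.05, and *MCM2*, *MCM3* and *FBXW5* were the named genes of these lists past 0.05 both with the share and without the 4 libraries.

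A list of regulators, hub genes and other genes taken from the text and tables of the study had 8 of 20 tested members nominally higher and none lower (median 0.39), and 4 of 20 higher without RES fetus 1. The list is not all genes that the study names for the liver, with *FOXA3* among those outside it, and it holds *PLEK*, which the study names for another tissue. Several were chosen by the study on these same libraries, so their direction is not independent evidence. Besides *MLXIPL*, *NR1H2*, *GATA1*, *HSF4*, *PFKFB1*, *HDAC8* and *APOC3*, the nominally higher one was *ZFP69* (0.55 ± 0.22). *PFKFB1*, *HDAC8*, *APOC3* and *ZFP69* were not past 0.05 without RES fetus 1. *PGAP3* (0.30 ± 0.15), *BCAM* (0.40 ± 0.20) and *B3GNT4* (0.66 ± 0.31) had an unadjusted *p* between 0.051 and 0.0632, and without the 4 libraries their estimates were -0.04, -0.16 and 0.21. *HOXA4* (0.20 ± 0.25), *MEF2D* (0.21 ± 0.19), *MARVELD1* (0.18 ± 0.20), *NIT1* (-0.16 ± 0.21), *PLEK* (-0.14 ± 0.15) and *ZNF175* (0.00 ± 0.17) differed by less than 1.5 standard errors. *HOXD4* was left out by the filter on low counts.

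**Figure D3:**
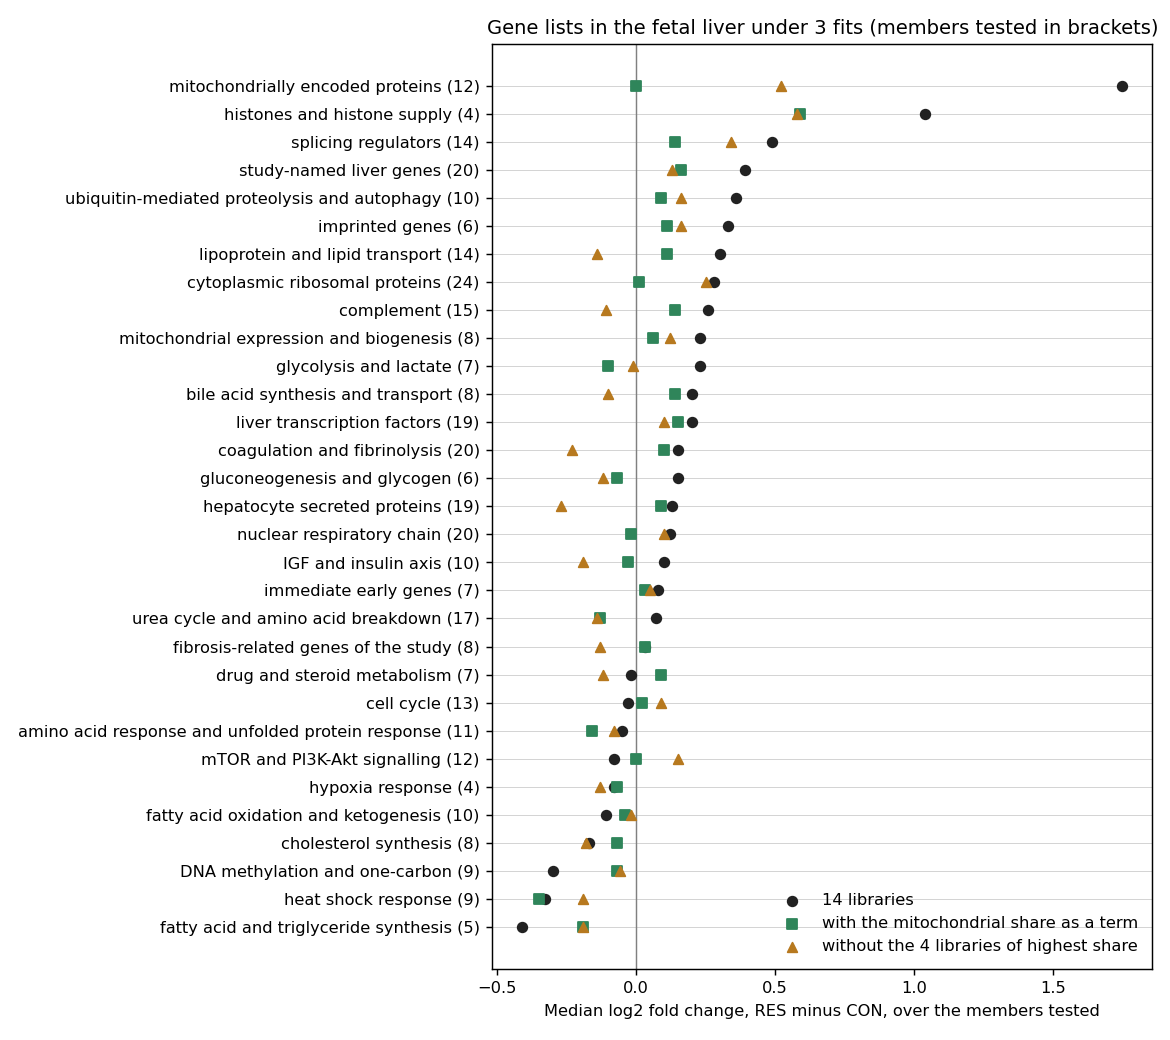
Median log2 fold change (RES minus CON) of 31 gene lists over their members tested, whose number is in brackets, in all 14 libraries (circles), with the mitochondrial share as a term (squares) and without the 4 libraries of highest share (triangles). For 26 lists the square lies closer to 0 than the circle, and 10 of the 21 lists with a median above 0 have a triangle below 0.

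Blood cell genes had estimates in both directions. Of 12 erythroid markers 3 were nominally higher, *GATA1*, *KEL* and the globin activator *KLF1* (0.71 ± 0.25, named after its value was seen), and 2 were lower, the embryonic globin *HBE4* (-1.04 ± 0.39) and *HEMGN* (-0.47 ± 0.21). *KEL*, a red cell surface antigen, ranged from 7.86 to 9.96 log2 CPM in CON (median 8.43) and from 7.82 to 11.01 in RES (median 9.29), a log2 fold change of 1.13 ± 0.38 (unadjusted *p* = 0.00926). *HBA* gave 0.00 ± 0.25. Without RES fetus 1 *HEMGN* gave -0.38 (unadjusted *p* = 0.0768). Without the 4 libraries *HEMGN* gave -0.10 (unadjusted *p* = 0.563) and *HBE4* -0.66 (unadjusted *p* = 0.0965). With the share in the model the estimates were 0.36 for *GATA1* (unadjusted *p* = 0.0202) and 0.40 for *KEL* (unadjusted *p* = 0.029), and without the 4 libraries they were 0.43 (unadjusted *p* = 0.0307) and 0.56 (unadjusted *p* = 0.0501). In the megakaryocyte list of 8, *GFI1B*, a repressor shared by red cell and platelet lineages (0.53 ± 0.18), was higher. The platelet receptor subunit *GP1BA* (-1.32 ± 0.48) was lower. With the share, *GFI1B* gave 0.33 (unadjusted *p* = 0.0489) and *GP1BA* -0.49 (unadjusted *p* = 0.143).

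Of 10 macrophage genes, 3 were nominally higher and none lower, with *CD74* (1.09 ± 0.33) and *TREM2* (1.0 ± 0.31) among them, whereas *CSF1R* (-0.04 ± 0.16) and *C1QB* (0.16 ± 0.17) did not differ beyond their spread. Without the 4 libraries no macrophage gene was past 0.05 and the median of the list was -0.18. Endothelial genes also differed in direction, with *PLVAP*, the protein of fenestral diaphragms (0.77 ± 0.24), and *EGFL7* (0.84 ± 0.34) higher and *LYVE1* and the angiopoietin receptor *TEK* (-0.66 ± 0.20) lower among 6. *EGFL7* gave 0.51 without RES fetus 1 (unadjusted *p* = 0.121) and 0.05 with the share, where *LYVE1* and *TEK* were past 0.05 and *PLVAP* was not. *CD8B* (-1.29 ± 0.37), a T cell co-receptor subunit, was lower and the progenitor antigen *CD34* (0.31 ± 0.14) higher in the lymphoid list of 3. No marker of hepatocytes (7 tested) or of stellate cells and mesenchyme (7 tested) was past 0.05 in either direction. In the muscle list *TNNT3* was nominally higher (0.97 ± 0.29) at a mean of 8.66 CPM, and the part of other tissue in these values was not tested.

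Since the first component followed the mitochondrial share, as it did the library total, each gene was also tested for the share, in a model with sex, diet and the share from which the mitochondrial genes were removed. At an adjusted *p* under 0.05, 7076 of 13515 genes followed the share (52.4%), of which 3471 rose (25.7%) and 3605 fell (26.7%). The same test without RES fetus 1 gave 7068 genes, and 6260 were in both (88.5% of the first). Of the 3255 genes outside the mitochondrial genome with an unadjusted *p* under 0.05 for diet, 2555 (78.5%) also followed the share. All but 1 of these had the same sign for diet and share. The genes were chosen by the diet fit without the share, and the mean share was higher in RES. An equal sign was thus favoured in advance. The share is measured in the same libraries, so it cannot be told apart here from anything else in which these libraries differ.

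Of the ribosomal proteins, 21 of 24 rose with the share (87.5%) and none fell. *RPL4* changed by 0.26 ± 0.04 log2 units per doubling of the share's odds (adjusted *p* = 2.69e-05). The nuclear respiratory chain rose for 11 of 20 genes and fell for 6, and DNA methylation and one-carbon genes rose for 2 of 9 and fell for 6. Among single genes, *KEL* (0.47 ± 0.05, adjusted *p* = 2.38e-06), *ATF4* (0.34 ± 0.03, adjusted *p* = 1.39e-06), *NUPR1* (0.54 ± 0.07) and *IGF2* (0.31 ± 0.04) rose with the share. *GHR* (-0.48 ± 0.07, adjusted *p* = 3.43e-05), *SLC2A2* (-0.62, adjusted *p* = 0.000293) and the imprinted zinc finger gene *PEG3* (-0.45 ± 0.06, adjusted *p* = 1.54e-05) fell with it. *APOB* (adjusted *p* = 0.971), *FGA* (0.876), *SUSD2* (0.983) and *MCM2* (0.845) gave changes between 0.00 and 0.01 per doubling. With the share in the model *ATF4* and *PEG3* had diet estimates of 0.03 and 0.12. Neither was past 0.05 without the share (unadjusted *p* = 0.0772 and 0.225). Of the other genes that followed it, *KEL* gave 0.40 (unadjusted *p* = 0.029) and *GHR* -0.44 (unadjusted *p* = 0.0448) in that model. *SUSD2* gave 0.94 and *MCM2* 0.27 there.

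**Figure D4:**
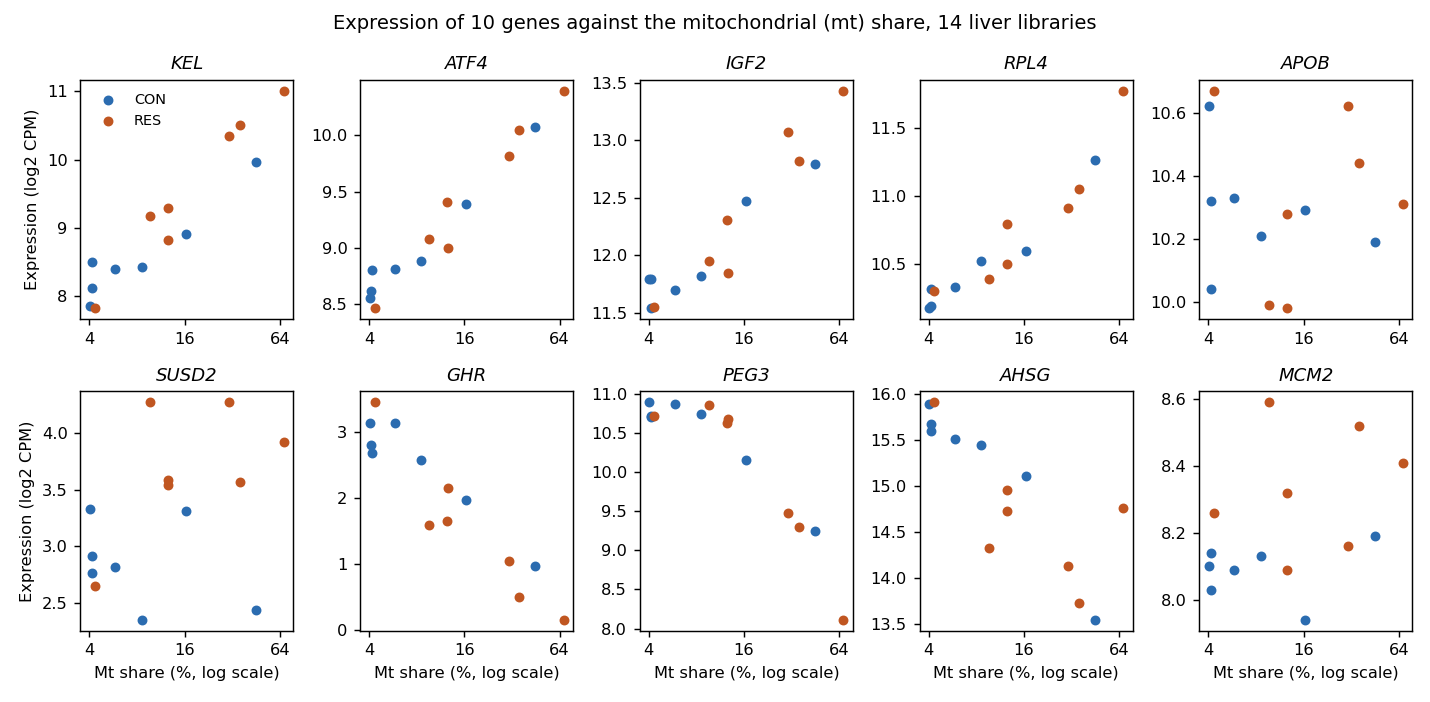
Expression in log2 CPM of 10 genes against the mitochondrial share of the library (log axis), 1 point per liver, CON in blue and RES in orange. *KEL*, *ATF4*, *IGF2* and *RPL4* rise and *GHR* and *PEG3* fall along the axis in both diets, *AHSG* is lower at high share with RES fetus 1 off that trend, whereas *APOB*, *SUSD2* and *MCM2* show no such trend and RES lies above most CON livers in *SUSD2* and *MCM2*.

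**Figure D5:**
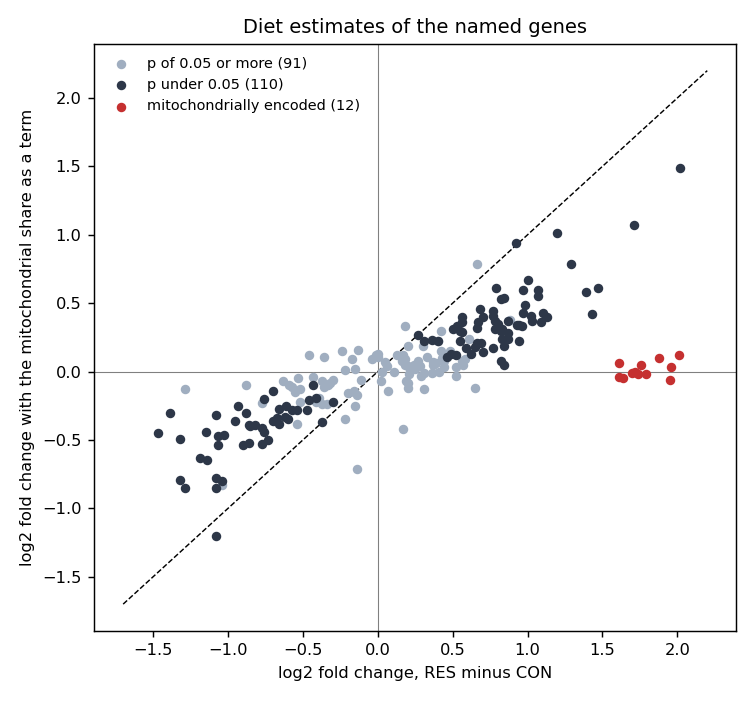
Log2 fold change (RES minus CON) of 213 named genes without (x axis) and with (y axis) the mitochondrial share in the model, with equality as a dashed line. Of the 110 genes with an unadjusted p under 0.05 outside the mitochondrial genome, 106 had a smaller estimate with the share. These genes were chosen by a low p without the share, which by itself favours smaller estimates in another fit. The 12 mitochondrial genes lie near 0 on the y axis because the share was computed from them.

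Whether the diet acted differently in the liver was tested against the mean diet effect of the cerebrum and the muscle, over 42 libraries and 15972 genes. No gene passed an adjusted *p* of 0.05 (lowest 0.548), and 1427 (8.93%) had an unadjusted *p* under 0.05, 795 with a liver estimate above that mean (4.98%) and 632 with one below it (3.96%). For *TMEM86B* the diet estimate was 1.29 in the liver, -0.20 in the cerebrum and -0.05 in muscle, and the liver minus the mean of the other tissues in the 42-library model, whose liver estimate is fitted separately from the 14-library one, was 1.37 (unadjusted *p* = 0.000875, adjusted *p* = 0.553). *RRP1B* gave 0.82, 0.13 and 0.19, and *DNAJA1* -1.32, -0.37 and -0.18. None of these differences between tissues was past the adjustment.

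Several genes typical of the liver had high estimates in the cerebrum. *ENTPD8* had a diet estimate of 3.38 there (unadjusted *p* = 0.000361), *APOB* 3.16, *AHSG* 4.15, *TF* 2.61, *IGF2* 3.31 and *GATA1* 2.97. Hepatocyte markers summed to between 20.3 and 6394 CPM in the cerebrum libraries, with a mean of 320 ± 440 in CON and 1418 ± 2276 in RES. The highest sum was that of RES fetus 1, whose cerebrum also had the highest mitochondrial share, and the next were RES 25 (1566), RES 52 (1255) and CON 46 (1238). In muscle the sums were 7.62 to 191 CPM. The part of liver RNA in the cerebrum values was not tested, and for genes typical of the liver the difference between tissues includes these values.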

How the data were processed

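RNA from the liver, cerebrum and hind limb muscle of 14 fetuses was sequenced by the authors as strand-specific paired 50-bp libraries, 21 samples per lane. Per the labels and the study's methods, the authors checked reads with FastQC 0.11.8 and MultiQC 1.8, aligned them with STAR 2.7.3a to ARS-UCD 1.2 with Ensembl release 100, and deposited raw counts per gene. Which strand column was kept is not given in the sources used here, so overlapping and antisense genes are uncertain. The 14 liver columns of the 42 were used for the diet comparison.

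Genes under 1 CPM in at least 80% of the liver libraries were left out, leaving 13527 of 22664. Diet was tested with edgeR 4.0.16 (R 4.3.3) by glmQLFit and glmQLFTest with TMM factors, fetal sex and diet, and Benjamini-Hochberg adjustment. SE is the size of the log2 fold change over the square root of F. Log2 CPM used TMM factors and a prior count of 1, and its difference between group means need not equal the fitted fold change, which also accounts for sex. The 12 mitochondrial protein genes with a symbol gave the share, which entered models as its logit. The liver against the other tissues was tested over 42 libraries. DESeq2 1.42.0 and limma 3.58.1 were alternatives. The tests were run on simulated data first. Library measures used exact permutation tests over 3432 regroupings, and correlations 100000 permutations.

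Symbols came from tables of the study, for 5131 genes (22.6%), and 47.3% of list and marker entries had one. These tables hold largely genes that the study selected on the same samples. Members and lists were chosen with earlier results of these data known. Named genes were the markers and a list of genes taken from the text and tables of the study, the 10 lowest *p* in each direction with a symbol and at least 10 CPM, the most abundant member and the 2 lowest *p* in each direction of each list, the 5 most abundant genes and all mitochondrial genes. Library totals and 3-count floors set the precision for single libraries. Same-numbered libraries of different tissues come from 1 fetus, and the correlation of their deviations from the group means ran from -0.228 to 0.335 between liver and another tissue. Some items are not reported here.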

Additional observations from a re-analysis of the deposited data

Results flagged for a closer look

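For 282 values of a group of 7 livers, the gap between the most extreme library and its neighbour was set against the range of the group, and 15 exceeded Dixon's 95% critical value of 0.568. The 282 values come from the same libraries and are not independent, so the number of flags cannot be set against a rate expected by chance. The cause of the flags was not tested.

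CON fetus 2 was the extreme library in 11 of them. Its mitochondrial share was 44.95%, with the next CON library at 16.42%, and its total was 11515157 counts. In log2 CPM it was the lowest CON liver for *AHSG* (13.54), *AFP* (13.70), *TF* (11.51), *PGK1* (5.94), *ELOVL6* (2.98) and *RRAGB* (1.68). It was the highest CON liver for *RPL4* (11.27), *MCM3* (8.26) and *CUL1* (6.05).

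RES fetus 70, whose mitochondrial share was the lowest of its diet (4.34%), was the highest RES liver for *SDC2* (5.04) and *SLC2A2* (3.98) and the lowest for *NR1I2* (1.54). RES fetus 1 was the highest for *AGPAT2* (7.28).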

How the results depend on the processing

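No gene passed the adjusted threshold for diet under edgeR with any other scaling or filter, in males only, without the sex term, with the share as a term or without any single library, against 78 with DESeq2 and 4092 with limma's voom and sample weights. The 3260 genes with an unadjusted *p* under 0.05 became 6258 with voom, 1347 without the sex term, 826 with the mitochondrial share as a term, 1034 with the share and without RES fetus 1, and 924 without the 4 libraries of highest share, the last 2 settings chosen after seeing the data. Leaving out each library gave 1793 (without RES 6) to 4728 (without CON 2), with 1909 without RES 1, 1995 without CON 46, 2007 without CON 69 and 2167 without RES 33. With upper quartile factors, which moved the median of all genes from -0.03 to -0.09, 1518 were higher and 1793 lower. The difference in share ran from 4.94 (without RES 1) to 17.5 percentage points (without CON 2) over the libraries left out. Of 115 named genes with an unadjusted *p* under 0.05, 48 kept it with the share and 35 without the 4 libraries. Of all 3260 such genes, 687 kept it with the share and 627 without the 4 libraries. Many named genes were picked by a low *p*, so the 2 sets are not alike. Among genes with an unadjusted *p* under 0.05, direction reversed without the 4 libraries for *APOC3* (-0.17), *VTN* (-0.22), *C3* (-0.05) and *IGFALS* (-0.12), and with the share for *ND6* (-0.02) and *ND2* (-0.06), also without RES 1 (-0.05 and -0.06), since the share is computed from these genes. For the others the cause was not tested. With the fetus as a replicate block, the comparison with the other tissues gave 0 genes past adjustment and 1406 with an unadjusted *p* under 0.05, against 1427, and changed no other call at the adjusted threshold. Within the liver the diets share no fetus. An alternative with mitochondrial ribosomal RNA genes was not run, since they could not be matched here.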
